A study of Mus musculus with 6 samples.

Results

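The genes described here are 40 components of the extracellular matrix that form elastic fibers, carry or anchor glycosaminoglycan chains, or sit in the matrix as matricellular proteins. They were taken by symbol from the 49671 genes of a liver RNA-seq count table, and all 40 were found by their Ensembl identifiers. Of these genes, 17 belong to the elastic fiber, 7 are small leucine-rich proteoglycans, 5 are large or basement membrane proteoglycans with their linkers, and 11 are matricellular or other matrix proteins. Livers of 3 SHMT2 fl/fl control mice were compared with livers of 3 SHMT2 HKO mice, which the labels call WT and KO, the names used below. All of them were male C57BL/6J mice by the study's methods, and all carry *Shmt2* alleles flanked by loxP sites. Only the SHMT2 HKO mice also carry Albumin-Cre, which the study used to target hepatocytes. From protein levels the paper proposes that SHMT2 in non-parenchymal liver cells was not affected, which was not tested here. Both genotypes ate the AMLN diet, in which fat, fructose and cholesterol are raised, and the feeding began when the mice were 4 weeks old and lasted 18 weeks. The labels do not state whether a library is a single animal, so p-values measure the spread between these 6 samples. Each library is called a mouse below.

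Elastic fibers give tissues recoil. They consist of a core of elastin on a scaffold of fibrillin microfibrils, and fibulins, emilins and microfibril-associated proteins join the parts. Latent TGF-β binding proteins dock on the same microfibrils and hold TGF-β in the matrix in an inactive form. Small leucine-rich proteoglycans bind collagen fibrils and set their spacing, whereas perlecan, agrin and the nidogens belong to basement membranes. In liver, most of these proteins are made by stellate cells, portal fibroblasts and the cells of vessels and ducts, and elastin and its partners accumulate in scars.

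Most of these genes were lower in KO livers. Of the 40, 39 had enough counts to be tested, 32 were lower and 1, *Ecm1*, was higher. A gene was called where the quasi-likelihood test of edgeR gave it a p-value under 0.05 once adjusted over 16089 genes by Benjamini and Hochberg. Over all genes tested, 16.5% were lower and 12.5% higher by the same rule. In 35 of the 39 every KO mouse lay below every WT mouse, which was the case for 25% of all genes tested, and 21.9% lay the other way. The genotypes overlapped in 3 of the 39 (*Emilin2*, *Dcn* and *Postn*), against 53.1% of all genes tested, where either call was made for 29%. The median log2 fold change was -1.59 for the 39 genes and 0.0273 for all genes. The elastic fiber genes had the lowest median of the 4 groups at -1.96, followed by the matricellular group at -1.69, the small leucine-rich proteoglycans at -1.59, and the large and basement membrane group at -1.13. With only genes of at least 10 counts in every sample, a filter that removes genes that fell to few counts, the elastic fiber median was -1.65 and the matricellular -1.73. Bulk RNA cannot tell fewer cells of a type from less RNA per cell.

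**Figure D1:**
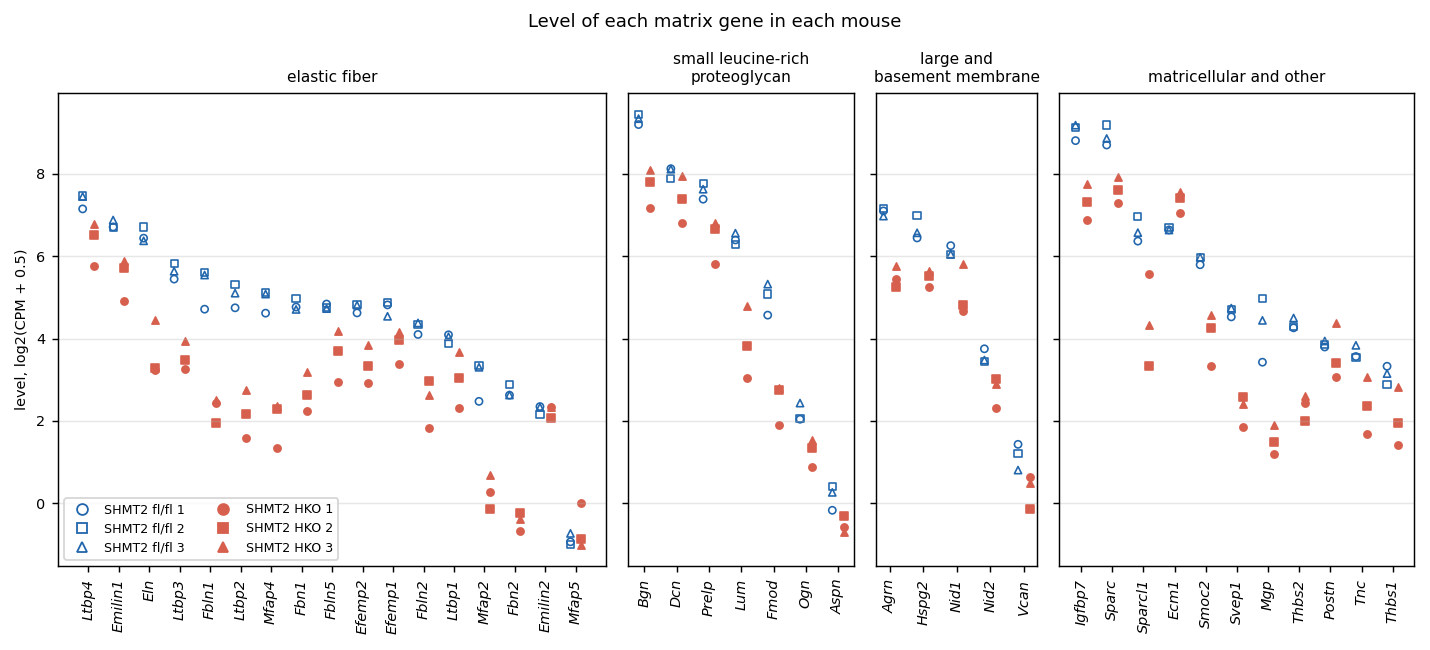
Level of each of the 40 genes in each mouse as log2(CPM + 0.5) (CPM, the count scaled to library size), with genes of each group ordered by their mean in SHMT2 fl/fl (WT) mice. Open blue points are the 3 SHMT2 fl/fl mice and filled red points the 3 SHMT2 HKO (KO) mice, and the red points lie below the blue ones for 35 of 39 tested genes, with *Ecm1* the reverse.

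*Shmt2* itself had 94.6, 109 and 93.9 CPM in WT mice 1, 2 and 3 and 24.9, 28.3 and 19.3 CPM in KO mice 1, 2 and 3, so the genotypes did not overlap. Gene counts ranged from 23090837 to 34089722 per library, genes detected from 23218 to 24340 in WT and from 20936 to 22703 in KO libraries, and the mitochondrial share of counts from 3.25% to 3.63% and from 4.30% to 4.97%. Neither of the last pair of measures overlapped between genotypes, and their part in the results was not tested. The synthetic ERCC RNAs added to the samples held 1.35% to 2.75% of all counts. Scaling entered every fold change, because the factors of edgeR's TMM method lay between 1.13 and 1.21 in WT and between 0.802 and 0.984 in KO libraries. The split of 2651 lower and 2012 higher genes became 4923 and 539 without TMM, 3039 and 1461 with upper-quartile scaling, and 2759 and 107 with ERCC scaling. The median of all genes shifted by -0.42 without TMM and by -0.72 with ERCC scaling, while the number of lower genes among the 40 was 36 and 35. Relative to the median of all genes, the elastic fiber median stayed lower under both, at -2.37 against -0.40 and at -2.58 against -0.69.

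The library of KO mouse 1 stood apart in transcripts of nervous tissue. Of 18 markers of neurons, oligodendrocytes and astrocytes, listed after this was seen, all 18 were highest in KO mouse 1, and their summed level was 272 CPM there against 7.50 to 27.6 CPM in the other 5 libraries. *Snap25*, a protein of the synapse, had 805 counts in KO mouse 1 and 0 or 1 elsewhere, and *Mobp*, a myelin protein, had 573 and again 0 or 1. The neural proteoglycan brevican (*Bcan*) had 104 counts there against 0 or 1. Without KO mouse 1, 32 of the 39 genes were lower and 1 higher, and the medians of the elastic fiber, matricellular, small leucine-rich, and large and basement membrane genes were -1.74, -1.50, -1.37 and -1.10.

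Promoter sequences are shown for the gene of each group that fell most among those with 1 listed start site, and for *Ecm1*, the gene that rose. They are the 250 bases before and 50 after the RefSeq start on GRCm38.p6, given 5′ to 3′ on the strand of the gene: *Ltbp2* at chr12:84876442-84876741 (minus strand), *Fmod* at chr1:134037004-134037303 (plus), *Hspg2* at chr4:137468553-137468852 (plus), *Svep1* at chr4:58206547-58206846 (minus) and *Ecm1* at chr3:95739520-95739819 (minus). Capitals mark matches on either strand to the motifs named after the sequences.
*Ltbp2*: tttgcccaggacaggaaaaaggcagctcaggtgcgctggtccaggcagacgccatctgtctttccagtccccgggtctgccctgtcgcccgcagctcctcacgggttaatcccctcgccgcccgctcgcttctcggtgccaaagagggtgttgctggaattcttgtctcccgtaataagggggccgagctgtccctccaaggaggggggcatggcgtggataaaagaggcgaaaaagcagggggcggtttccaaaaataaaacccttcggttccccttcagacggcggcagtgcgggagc
*Fmod*: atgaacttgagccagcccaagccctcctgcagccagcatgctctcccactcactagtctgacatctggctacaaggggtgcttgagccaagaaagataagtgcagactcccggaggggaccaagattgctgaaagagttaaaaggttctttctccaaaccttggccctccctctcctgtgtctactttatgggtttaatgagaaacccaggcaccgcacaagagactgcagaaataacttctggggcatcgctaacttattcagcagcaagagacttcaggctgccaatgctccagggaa
*Hspg2*: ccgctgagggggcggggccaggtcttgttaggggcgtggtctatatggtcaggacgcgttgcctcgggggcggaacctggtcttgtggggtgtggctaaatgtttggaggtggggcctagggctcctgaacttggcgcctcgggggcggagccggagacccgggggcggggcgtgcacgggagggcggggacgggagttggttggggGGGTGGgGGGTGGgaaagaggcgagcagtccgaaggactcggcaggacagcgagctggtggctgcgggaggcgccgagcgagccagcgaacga
*Svep1*: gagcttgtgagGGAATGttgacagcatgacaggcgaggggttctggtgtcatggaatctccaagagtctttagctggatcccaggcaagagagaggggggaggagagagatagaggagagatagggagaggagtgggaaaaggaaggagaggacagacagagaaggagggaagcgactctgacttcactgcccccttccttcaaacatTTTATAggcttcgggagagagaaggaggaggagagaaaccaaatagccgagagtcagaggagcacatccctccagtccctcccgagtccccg
*Ecm1*: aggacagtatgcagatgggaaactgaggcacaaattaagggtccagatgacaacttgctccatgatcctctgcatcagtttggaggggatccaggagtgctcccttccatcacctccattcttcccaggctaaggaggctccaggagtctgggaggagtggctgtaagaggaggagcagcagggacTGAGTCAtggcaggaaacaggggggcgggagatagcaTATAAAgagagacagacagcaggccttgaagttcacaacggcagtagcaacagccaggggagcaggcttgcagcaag
The motifs searched were the SMAD palindrome GTCTAGAC, the AP-1 element TGANTCA, the TEAD element GGAATG, the TATA element TATAAA and the CACC box CCACCC. *Ecm1* held an AP-1 match at -64 and a TATA match at -27 from the start, counted to the leftmost base. *Svep1* held a TEAD match at -239 and a TATA match at -42, and *Hspg2* held neighboring CACC boxes at -43 and -36. Promoters were listed for 29 of the 40 genes, 41 in all. The CACC box was in 51.2% of these 41 and in 31.5% of all 32851 promoters of the same length, while their median GC content was 60.3% against 52.7%. The AP-1 element was in 7.32% against 7.81%, the TEAD element in 12.2% against 14.7%, the TATA element in 19.5% against 13.6%, and the SMAD palindrome in none of the 41 against 0.213%. These shares describe letters in the window and were not tested.

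Among the structural genes of the elastic fiber, *Eln* (ENSMUSG00000029675, chromosome 5, 134702593 to 134747323), which encodes elastin, had 86.0, 104 and 82.2 CPM in WT mice 1, 2 and 3 and 8.96, 9.22 and 21.3 CPM in KO mice 1, 2 and 3. The highest KO mouse thus stayed well under the lowest control. The standard error (SE) is that of edgeR's fit. The means were 90.7 ± 11.5 CPM in controls and 13.2 ± 7.07 CPM in KO livers (SD, n = 3 each), a log2 fold change of -2.78 with an SE of 0.34 (adjusted p = 0.0017). *Fbn2*, which encodes fibrillin-2, the fibrillin of developing tissues, fell the most of the 40. Its counts were 232, 183 and 218 in WT mice 1, 2 and 3 and 3, 7 and 7 in KO mice 1, 2 and 3. Mouse 1 of the KO group was thus at the level of 3 counts taken as the floor of detection, and the log2 fold change of -4.59 (SE 0.35) rested on 17 counts in that group. *Fbn1* (chromosome 2, 125300594 to 125507993), which encodes fibrillin-1, the main microfibril protein of adult tissue, had 26.7, 30.8 and 25.6 CPM in controls and 4.24, 5.67 and 8.62 CPM in KO mice (log2 fold change -2.16, adjusted p = 0.00128). *Fbn1* also shares 20.1% of its exon length with the opposite-strand gene *Gm9913*, and the strand setting of the counting is not stated.

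The proteins that coat or link the fiber fell as well. *Mfap2*, which encodes the microfibril-associated glycoprotein MAGP-1, had 5.06, 9.67 and 9.37 CPM in WT mice 1, 2 and 3 and 0.722, 0.405 and 1.10 CPM in KO mice, a log2 fold change of -3.40 (SE 0.40, adjusted p = 0.00142). *Mfap4*, whose protein binds elastin and microfibrils, went from a mean of 30.5 ± 5.59 CPM to 3.68 ± 1.43 CPM (SD, n = 3 each, log2 fold change -3.05). *Mfap5*, which encodes MAGP-2, the relative of MAGP-1, did not pass the filter on low counts, with counts of 1, 0 and 4 in controls and 12, 1 and 0 in KO mice. *Fbln1* (chromosome 15, 85205949 to 85286535), which encodes fibulin-1, had 25.7, 48.3 and 46.0 CPM in controls and 4.88, 3.34 and 5.16 CPM in KO mice (log2 fold change -3.16, SE 0.28, adjusted p = 0.000849). Control mouse 1 had the lowest value of its group for both *Mfap2* and *Fbln1*. The other fibulins fell less. The log2 fold change was -1.83 for *Fbln2*, -1.38 for *Efemp2* (fibulin-4) and -1.10 for *Fbln5*, and the latter pair of proteins is needed to assemble elastin. It was -0.90 for *Efemp1* (fibulin-3). *Fbln5* lost its call without any single control mouse or KO mouse 2 (adjusted p = 0.062 to 0.0689), and *Efemp1* without control mouse 1 or 2 (0.06 and 0.0593).

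The emilins differed from each other. *Emilin1*, an elastin-fibrillin interface glycoprotein, had 104, 103 and 117 CPM in WT mice 1, 2 and 3 and 29.8, 52.2 and 58.5 CPM in KO mice, with a log2 fold change of -1.21 (adjusted p = 0.00716). *Emilin2* was at 4.60, 3.95 and 4.54 CPM in controls and 4.58, 3.70 and 4.53 CPM in KO mice, so the genotypes overlapped throughout. Its log2 fold change was -0.03 (SE 0.20, adjusted p = 0.921), the smallest of the 39, and its sign turned without control mouse 1 (0.00817) or KO mouse 2 (0.0627).

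All 4 latent TGF-β binding protein genes had lower values in each KO mouse, and 3 of them fell. *Ltbp2* (chromosome 12, 84783212 to 84876532), whose protein binds fibrillin but not latent TGF-β, had 26.3, 39.1 and 33.8 CPM in WT mice 1, 2 and 3 and 2.50, 4.00 and 6.18 CPM in KO mice. It fell by 2.96 on the log2 scale (SE 0.31, adjusted p = 0.00111), against -2.10 for *Ltbp3* (adjusted p = 0.000871). *Ltbp4*, the most abundant elastic fiber gene per exon length in controls at 25.3 CPM per kilobase, had 141, 176 and 174 CPM in controls and 53.7, 91.3 and 109 CPM in KO mice (log2 fold change -0.95, adjusted p = 0.023). Its call was lost without control mouse 2 or 3 or KO mouse 2 (adjusted p = 0.077, 0.0792 and 0.0605). *Ltbp1* went from 15.6 ± 1.21 to 8.15 ± 3.91 CPM (SD, n = 3 each) with an adjusted p of 0.0575. It passed the threshold with DESeq2 (adjusted p = 0.0215), limma-voom (0.0294) and all 3 other scalings, and without KO mouse 1 or 3 (0.0493 and 0.0054).

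**Figure D2:**
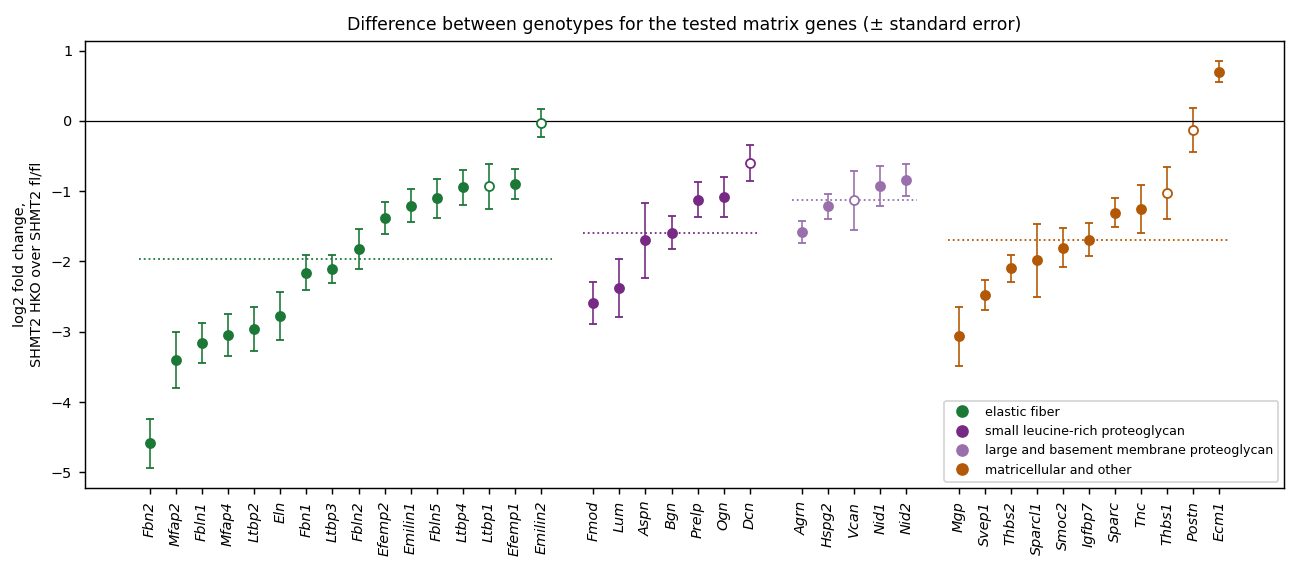
Log2 fold change between SHMT2 HKO and SHMT2 fl/fl livers of the 39 tested genes with the standard error of edgeR's fit, ordered within each group. Filled points had an adjusted p-value under 0.05, open points did not, and dotted lines are the group medians of -1.96, -1.59, -1.13 and -1.69 from left to right.

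All 7 small leucine-rich proteoglycan genes had a lower mean in KO livers and 6 of them fell. *Bgn* (chromosome X, 73483602 to 73495933), which encodes biglycan, a collagen-binding proteoglycan that also acts as a danger signal, was the most abundant of them per exon length, at 105 CPM per kilobase in controls. It had 584, 694 and 645 CPM in WT mice 1, 2 and 3 and 144, 221 and 273 CPM in KO mice, a log2 fold change of -1.59 (SE 0.24, adjusted p = 0.00283). *Dcn*, which encodes the related decorin, had 278, 236 and 275 CPM in controls and 112, 166 and 245 CPM in KO mice. KO mouse 3 thus lay above control mouse 2, and the log2 fold change of -0.60 had an adjusted p of 0.12. Without KO mouse 3 it was -0.94 (adjusted p = 0.0092), and without mouse 1 it was -0.36 (0.2). Without TMM it was -0.98 (adjusted p = 0.0419), and with ERCC scaling -1.14 (0.0544).

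*Fmod* (chromosome 1, 134037254 to 134048277), which encodes fibromodulin, fell most in this group, from 23.2, 33.3 and 39.5 CPM in WT mice 1, 2 and 3 to 3.23, 6.28 and 6.42 CPM in KO mice (log2 fold change -2.59, SE 0.30, adjusted p = 0.00137). *Lum*, which encodes lumican, its relative on collagen fibrils, had 83.5, 76.8 and 93.6 CPM in controls and 7.68, 13.6 and 27.3 CPM in KO mice. The values of the KO mice spread over a wide range without reaching the controls, and the log2 fold change was -2.38 (SE 0.41, adjusted p = 0.00646, or 0.0593 with no filter on low counts). *Prelp*, whose protein anchors basement membranes to collagen, had 166, 215 and 197 CPM in controls and 55.3, 100 and 110 CPM in KO mice (log2 fold change -1.12, adjusted p = 0.013). Its adjusted p was 0.0516 without control mouse 2. *Ogn*, which encodes osteoglycin, was at -1.08 in log2 terms (adjusted p = 0.0244) and lost its call without any single control mouse or KO mouse 2 (adjusted p = 0.0578 to 0.109). *Aspn*, which encodes asporin, was near the floor, with counts of 16, 22 and 27 in controls and 4, 6 and 3 in KO mice. Its log2 fold change of -1.70 had an adjusted p of 0.0444, which exceeded 0.05 with any single mouse left out (0.0544 to 0.146), with DESeq2 (0.0646), with limma-voom (0.0604), with no filter on low counts (0.0861) and with the replicate number as a block (0.0715).

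In the large and basement membrane group, *Agrn* (chromosome 4, 156165290 to 156197488), which encodes the heparan sulfate proteoglycan agrin, fell most. It had 136, 142 and 125 CPM in WT mice 1, 2 and 3 and 43.1, 37.4 and 53.7 CPM in KO mice, with little spread within either genotype (log2 fold change -1.59, SE 0.15, adjusted p = 0.000911). *Hspg2*, which encodes perlecan, had 86.3, 126 and 94.2 CPM in controls and 37.3, 45.2 and 49.6 CPM in KO mice (log2 fold change -1.21, adjusted p = 0.00271). The nidogens, which join the laminin and collagen networks of basement membranes and are not themselves proteoglycans, fell less and less firmly. *Nid1* had 75.8, 65.2 and 65.5 CPM in controls and 25.0, 27.7 and 55.5 CPM in KO mice (log2 fold change -0.93, adjusted p = 0.0423). It moved to -1.41 without KO mouse 3 (adjusted p = 0.000542) and lost its call without any other single mouse (0.0691 to 0.13) and with no filter on low counts (0.154). *Nid2*, which shares 8.45% of its exon length with the opposite-strand *Rtraf*, went from 11.3 ± 1.45 to 6.31 ± 1.65 CPM (SD, n = 3 each, log2 fold change -0.84, adjusted p = 0.0247). It lost its call without any single control mouse (0.056 to 0.0967) or with the replicate number as a block (0.0567). *Vcan*, which encodes the hyaluronan-binding versican, had low levels of 1.75 ± 0.477 CPM in controls and 0.790 ± 0.343 CPM in KO livers (SD, n = 3 each, log2 fold change -1.13, adjusted p = 0.0759). Its adjusted p was 0.0428 without KO mouse 1, 0.0304 without TMM and 0.0284 with ERCC scaling.

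In the median, elastic fiber genes fell further than the 12 genes of both proteoglycan groups, called proteoglycan genes here. Their median log2 fold changes were -1.96 and -1.17, a difference of -0.79 (-0.50 without KO mouse 1 and -0.44 with at least 10 counts in every sample), with 14 of 16 tested elastic fiber genes and 10 of 12 proteoglycan genes called lower against 16.5% of all genes. The number of proteoglycan genes called lower was 6, 5 and 6 without control mouse 1, 2 or 3, while that of elastic fiber genes stayed between 11 and 15 with any single mouse left out. The ranges overlapped widely, from -4.59 to -0.03 in elastic fiber genes and from -2.59 to -0.60 in proteoglycan genes. The 12 include *Nid1* (-0.93) and *Nid2* (-0.84), which are not proteoglycans. They fell less than the median of the 12 and so enlarge the difference. Without them the proteoglycan median lies between *Hspg2* (-1.21) and *Agrn* (-1.59), nearer to that of the elastic fiber genes. The exact difference was not computed. The ratio of the 2 summed counts does not depend on how libraries are scaled. Summed elastic fiber counts were 0.417, 0.454 and 0.447 of summed proteoglycan counts in WT mice 1, 2 and 3 and 0.352, 0.379 and 0.363 in KO mice 1, 2 and 3, so each KO mouse lay below each control. Without *Ltbp4* and *Bgn*, the gene with the highest counts in each sum, the ratios were 0.535, 0.607 and 0.572 in controls and 0.341, 0.360 and 0.344 in KO mice. From the control to the KO mean, *Ltbp4* (163 to 84.8 CPM) fell by a smaller share than the elastic fiber sum (676 to 230 CPM). *Bgn* (641 to 212 CPM) fell by a larger share than the proteoglycan sum (1537 to 631 CPM). Leaving them out was thus bound to widen the gap and cannot show whether it rests on other abundant genes. The abundant *Dcn* held 278, 236 and 275 CPM of proteoglycan sums of 1452, 1606 and 1552 CPM in WT mice 1, 2 and 3. In KO mice 1, 2 and 3 it held 112, 166 and 245 CPM of 434, 627 and 831 CPM. *Dcn* changed by only -0.60 and fell less than its sum, so leaving it out narrows the gap. The ratio without *Dcn* was not computed, so whether each KO mouse would still lie below each control is not shown. Because both groups of genes were chosen with earlier results known, the difference between them was not tested.

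Paired members of a family were also compared within each mouse, which again removes the scaling. In 5 of 12 pairs the ratio per exon length did not overlap between genotypes. For single genes, every KO mouse lay below every WT mouse in 25% of all genes tested and above in 21.9%. The share for other pairs of genes was not computed, so 5 of 12 is not read as particular to these families. The *Fbn2* to *Fbn1* ratio was 0.196, 0.206 and 0.204 in WT mice 1, 2 and 3 and 0.0320, 0.0612 and 0.0314 in KO mice, a log2 difference of -2.36. The *Ltbp2* to *Ltbp4* ratio moved by -2.03 on the log2 scale and the *Bgn* to *Dcn* ratio by -0.97. The *Bgn* to *Dcn* ratio was 2.01, 2.81 and 2.24 in controls and 1.23, 1.28 and 1.07 in KO mice, so the transcripts of these related proteoglycans came near parity. In the other direction, the *Emilin2* to *Emilin1* ratio moved by 1.23 and the *Efemp1* to *Efemp2* ratio by 0.50. Each of these 5 had an exact two-sided permutation p of 0.1, the smallest that 3 mice against 3 allow, and 0.217 after Benjamini-Hochberg adjustment over 13 ratios. The ratios of *Fmod* to *Lum*, *Nid2* to *Nid1*, *Hspg2* to *Agrn*, *Thbs2* to *Thbs1*, *Sparcl1* to *Sparc*, *Fbln2* to *Fbln1* and *Aspn* to *Dcn* overlapped. The ratio of *Mfap5* to *Mfap2* rested on *Mfap5* counts of 0 to 12 and is not described further.

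**Figure D3:**
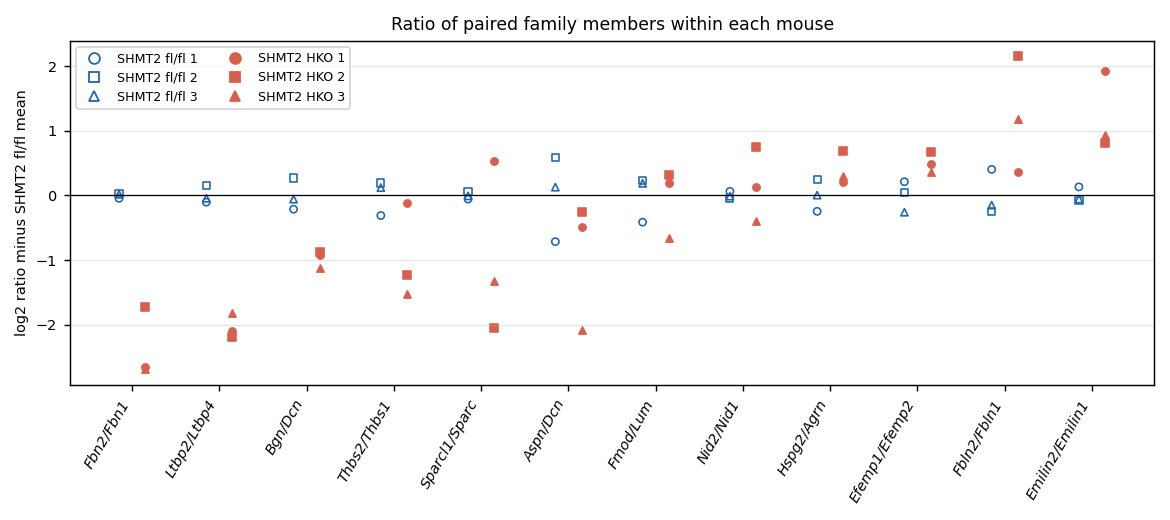
Log2 ratio of 2 members of a family within each mouse, minus the mean of the SHMT2 fl/fl (WT) mice, for 12 pairs ordered by the difference between genotypes. Open blue points are SHMT2 fl/fl mice and filled red points SHMT2 HKO (KO) mice, and the red points of *Fbn2*/*Fbn1*, *Ltbp2*/*Ltbp4* and *Bgn*/*Dcn* lie below all blue points of the same pair.

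In the matricellular group, 8 of 11 genes fell and 1 rose. *Igfbp7*, an insulin-like growth factor binding protein of vessel walls and stellate cells, was the most abundant of the 40 per exon length in both genotypes, at 435 CPM per kilobase in controls and 135 in KO livers. It had 445, 553 and 578 CPM in WT mice 1, 2 and 3 and 117, 157 and 214 CPM in KO mice (log2 fold change -1.69, SE 0.23, adjusted p = 0.00229). *Sparc*, which encodes the collagen-binding osteonectin, had 414, 579 and 462 CPM in controls and 156, 192 and 240 CPM in KO mice (log2 fold change -1.30, adjusted p = 0.00349). Every KO mouse lay below every control for both. *Igfbp7* shares 7.03% of its exon length with the opposite-strand gene *Polr2b*. *Mgp*, which encodes matrix Gla protein, an inhibitor of calcification, fell most in this group. It had 10.2, 30.7 and 21.2 CPM in controls and 1.78, 2.33 and 3.27 CPM in KO mice (log2 fold change -3.06, SE 0.42, adjusted p = 0.00252).

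*Svep1* (chromosome 4, 58042442 to 58206859), which encodes a large adhesion protein, had 22.5, 25.7 and 26.2 CPM in WT mice 1, 2 and 3 and 3.10, 5.47 and 4.80 CPM in KO mice (log2 fold change -2.48, SE 0.21, adjusted p = 0.000776). It shares 13.9% of its exon length with the opposite-strand *Gm26889*. *Thbs2*, which encodes thrombospondin-2, had 18.7, 19.2 and 22.1 CPM in controls and 4.88, 3.49 and 5.55 CPM in KO mice (log2 fold change -2.10, adjusted p = 0.000852). Its relative *Thbs1*, an activator of latent TGF-β, went from 8.28 ± 1.31 to 4.04 ± 2.28 CPM (SD, n = 3 each) with a log2 fold change of -1.03 and an adjusted p of 0.0686. Without KO mouse 3 the change of *Thbs1* was -1.60 (adjusted p = 0.00432), and it also passed the threshold with DESeq2 (0.0286) and limma-voom (0.0342). *Smoc2*, a calcium-binding relative of osteonectin, went from 59.8 ± 4.29 to 17.1 ± 6.90 CPM (SD, n = 3 each), or -1.80 in log2 terms (adjusted p = 0.00366). *Tnc*, which encodes tenascin-C, a protein of wounds and scars, had one of -1.25 (adjusted p = 0.0268), which lost its call without any single control mouse or KO mouse 2 (0.0658 to 0.0955).

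*Sparcl1*, an osteonectin relative of vessel walls, had 81.8, 125 and 94.4 CPM in WT mice 1, 2 and 3 and 46.6, 9.57 and 19.6 CPM in KO mice. Here KO mouse 1, the library with nervous tissue transcripts, was the highest of its group, and *Sparcl1* is also abundant in brain. Without that mouse the log2 fold change was -2.77 (adjusted p = 0.00128), and the part of those transcripts in the result was not tested. The log2 fold change of -1.98 had an adjusted p of 0.029, which was lost without any single control mouse or KO mouse 3 (0.063 to 0.109) and with no filter on low counts (0.163). *Postn*, which encodes periostin, a product of activated fibroblasts, had 13.4, 13.9 and 14.8 CPM in controls and 7.85, 10.2 and 20.4 CPM in KO mice. KO mouse 3 exceeded all controls, and mice 1 and 2 lay below them. The log2 fold change was -0.13 (adjusted p = 0.789). It was -0.66 without mouse 3 (adjusted p = 0.021), and positive without mouse 1 (0.13) or mouse 2 (0.014). *Ecm1* (chromosome 3, 95734147 to 95739569), which encodes extracellular matrix protein 1, a secreted protein that hepatocytes make in liver, had 98.9, 103 and 98.8 CPM in controls and 132, 168 and 189 CPM in KO mice. The rise of 0.70 on the log2 scale (SE 0.15, adjusted p = 0.0115) was 0.29 without TMM (adjusted p = 0.266) and 0.07 with ERCC scaling (0.918), and its adjusted p was 0.0565 without control mouse 3.

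The KO mice followed one order in most of these genes. Mouse 1 had the lowest value of its group in 31 of 39 tested genes and mouse 3 the highest in 31, against 35.3% and 36.5% over all genes tested and 47.3% and 61.0% over all genes called lower. Summed over the 40 genes, the level was 3238 to 3864 CPM in WT mice and 1071 to 1866 CPM in KO mice. The median over the elastic fiber genes of log2(CPM + 0.5), relative to the mean of the controls, was -2.41, -1.79 and -1.63 in KO mice 1, 2 and 3, and that of the proteoglycan genes was -1.43, -1.22 and -0.83. Among the controls, mouse 1 was lowest in 22 of the 32 genes called lower (68.8%, against 46.2% of all genes called lower) and mouse 2 highest in 20 (62.5% against 56.2%).

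Other genes of the same pathways were taken from lists compiled by hand. By the rule used above, 16.5% of all genes tested fell and 12.5% rose. Of 17 tested genes that cross-link or organize elastic fibers, 13 fell and 0 rose in edgeR's test (1 rose at an unadjusted p under 0.05 and 1 with DESeq2), with a median log2 fold change of -1.02. The largest changes were those of *Adamtsl1* (-2.70), *Thsd4* (-2.47), which encodes a fibrillin-binding ADAMTS-like protein, and *Loxl1* (-2.46), the lysyl oxidase that acts on elastin. *Lox*, the founding lysyl oxidase, was at -1.63 with an adjusted p of 0.0127, or of 0.0563 without WT mouse 1. The number that fell was 7, 8 and 7 without WT mouse 1, 2 or 3 and 8 without KO mouse 2. Of 28 other proteoglycan genes tested, 7 fell and 4 rose (median -0.42), so that 25% fell, against 16.5% of all genes. The split was 14 and 1 without TMM, 10 and 2 with upper-quartile and 7 and 0 with ERCC scaling, and with 1 mouse left out 5 to 9 fell and 1 to 5 rose. The chondroitin sulfate proteoglycan gene *Cspg4* (-2.25), a pericyte marker, the glypican gene *Gpc2* (-1.81) and *Col15a1* (-1.79) fell most, with *Gpc2* losing its call without any single WT mouse (adjusted p up to 0.0607). The genes that rose were *Chad* (1.20), *Gpc1* (1.19), *Sdc4* (0.56) and *Col18a1* (0.53), of which *Gpc1* still passed the threshold without TMM and none with ERCC scaling, where *Sdc4* and *Col18a1* turned to -0.19 and -0.24. Only *Gpc1* kept its call with any single mouse left out, while *Chad* lost it without WT mouse 3 or KO mouse 2 (adjusted p up to 0.067), and *Sdc4* and *Col18a1* lost it without any of the mice other than KO mouse 3 (up to 0.124 and 0.15).

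Of 39 tested enzymes that build glycosaminoglycan chains, 7 fell and 1 rose, 17.9% lower against 16.5% over all genes, with a median of -0.12. The number that fell was 4, 3 and 3 without WT mouse 1, 2 or 3, 4 without KO mouse 2, and 1 to 3 genes rose with 1 mouse left out. Without TMM 14 fell and 0 rose, and with ERCC scaling 5 fell and 0 rose. The largest changes were those of *Hs3st1* (-2.46), *Chst14* (-1.38) and *Chst11* (-1.30), which encode sulfotransferases of heparan, dermatan and chondroitin sulfate, and *Chst11* lost its call without WT mouse 2 or 3 (adjusted p up to 0.0612). *Hs3st3b1* rose by 0.67, which ERCC scaling turned to -0.04. Of 24 further matricellular genes tested, 12 fell and 2 rose (median -1.06), where 16.5% and 12.5% of all genes did. The split became 17 and 0 without TMM, 13 and 0 with upper-quartile and 14 and 0 with ERCC scaling. *Matn4* (-3.68), *Ccn5* (-3.46) and *Spp1* (-2.62), which encode matrilin-4, a CCN family protein and osteopontin, fell most, and *Matn4* had 0 counts in KO mouse 1. *Fn1* and *Smoc1* rose by 0.59 and 0.36, and both turned with ERCC scaling, to -0.20 and -0.37. Both lost their call without any of the mice other than KO mouse 3 (adjusted p up to 0.168 and 0.165).

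Markers of several cell types also fell in KO livers, and their part in the result was not tested. The order of the KO mice differed between lists. In KO mice 1, 2 and 3 the median log2 level relative to controls was -2.41, -1.79 and -1.63 for elastic fiber genes. Markers of stellate cells (-0.81, -0.71 and -0.42) and macrophages (-1.12, -0.81 and -0.43) had the same order. Those of cholangiocytes (-2.60, -2.96 and -2.08) and portal fibroblasts (-1.47, -1.88 and -1.33) were lowest in KO mouse 2. Hepatocyte markers summed to 58400 to 72002 CPM in WT and to 68641 to 103210 CPM in KO mice, so the defining transcripts of the labelled tissue were abundant in all libraries. Of 7 such markers *Ttr* and *Apob* rose, by 0.82 and 0.63 on the log2 scale, which ERCC scaling turned to -0.06 and -0.07. In edgeR's test 0 rose and 1 fell without TMM or with ERCC scaling, 0 rose with the replicate number as a block, and 0 to 4 rose with 1 mouse left out. Of 10 portal fibroblast markers 9 fell, with a median log2 fold change of -1.92 and summed levels of 564 to 715 CPM against 164 to 239 CPM. Without WT mouse 1 or 2 the number that fell was 6. Of 9 cholangiocyte markers all 9 fell, with a median of -2.97 and sums of 1021 to 1275 CPM against 154 to 270 CPM. Most of these sums was *Spp1*, with 876, 944 and 792 CPM in WT and 104, 105 and 215 CPM in KO mice, and it is also counted among the further matricellular genes above. Of 13 stellate cell and myofibroblast markers 7 fell and 1 rose, with a median of -0.60 and sums of 1191 to 1225 CPM against 306 to 719 CPM. The split was 9 and 0 without TMM and 6 and 0 with ERCC scaling. The number that fell was 4 without WT mouse 1 or KO mouse 2 and 3 without WT mouse 2. Within this list *Pdgfra* fell by 2.10 and *Pdgfrb* by 1.46 on the log2 scale. *Reln* rose by 0.97, which was 0.36 (adjusted p = 0.597) with ERCC scaling, and *Lrat*, the retinol-esterifying enzyme of quiescent stellate cells, was at 0.03 (adjusted p = 0.975).

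Of 6 vascular smooth muscle markers 2 fell (median -0.54, sums of 87.7 to 105 CPM against 50.8 to 80.5 CPM), which is 33.3% against 16.5% of all genes. Without TMM 4 fell, with upper-quartile scaling 3, with ERCC scaling or without WT mouse 1 only 1, and 0 with the replicate number as a block or without WT mouse 2 or 3 or KO mouse 2. Of 6 tested mesothelial markers 0 passed the threshold in edgeR's test, and 0 did at an unadjusted p under 0.05 (median -0.54). There *Krt8*, which hepatocytes also express, held most of the sum of 793 to 828 CPM against 600 to 789 CPM. Without KO mouse 1 or 3 or without TMM, 1 mesothelial marker fell, and with ERCC scaling 2. Of 9 endothelial markers 0 fell, also at an unadjusted p under 0.05, and 2 rose, where 12.5% of all genes did. Without KO mouse 1 or with DESeq2, 4 endothelial markers rose. Their median was -0.24, with sums of 431 to 433 CPM against 394 to 493 CPM. Without TMM 5 fell and 1 rose (median -0.65), and with ERCC scaling 0 did either (median -0.90). Of 8 macrophage markers 4 fell and 1 rose (median -0.78, sums of 601 to 853 CPM against 424 to 579 CPM). The number that fell was 6 without KO mouse 3 and 3 without WT mouse 1 or 3 or KO mouse 2. The marker that rose was *Clec4f*, by 2.83 on the log2 scale. No marker in any of the 8 lists was at 0 in a library. Among the controls, the duct keratin *Krt19* had 25.6, 65.1 and 38.8 CPM in WT mice 1, 2 and 3, the same order as *Mgp*, *Mfap2* and *Fbln1* with mouse 1 lowest and mouse 2 highest.

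**Figure D4:**
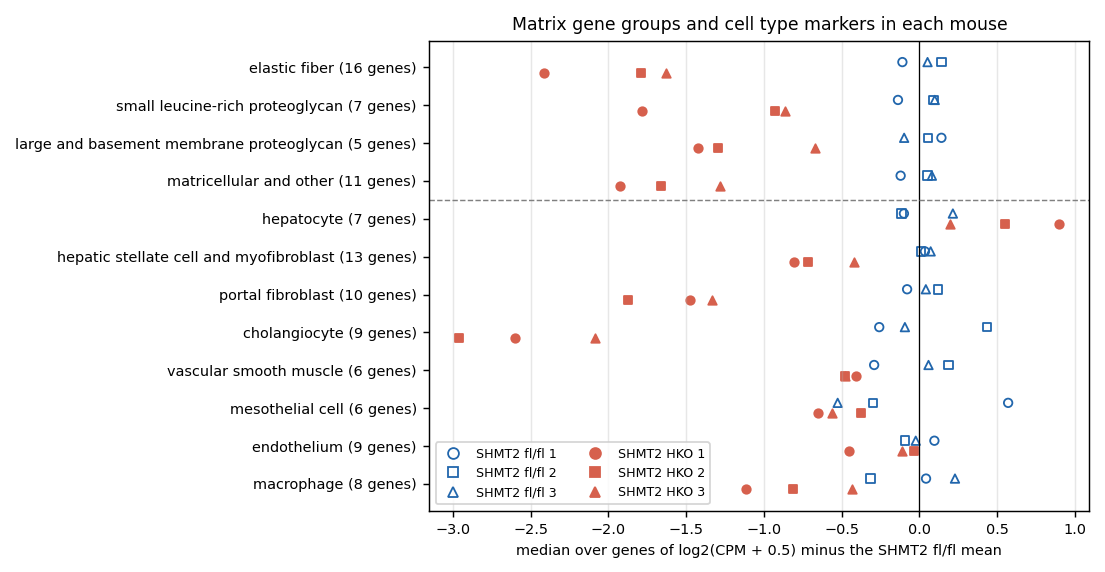
Median over the tested genes of each list of log2(CPM + 0.5) in each mouse, relative to the mean of the SHMT2 fl/fl (WT) mice, for the 4 groups of matrix genes above the dashed line and 8 lists of cell type markers below it. Open blue points are SHMT2 fl/fl mice and filled red points SHMT2 HKO (KO) mice, and in SHMT2 HKO mice 1, 2 and 3 the cholangiocyte markers lie at -2.60, -2.96 and -2.08, the portal fibroblast markers at -1.47, -1.88 and -1.33 and those of endothelium at -0.46, -0.04 and -0.11.

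**Figure D5:**
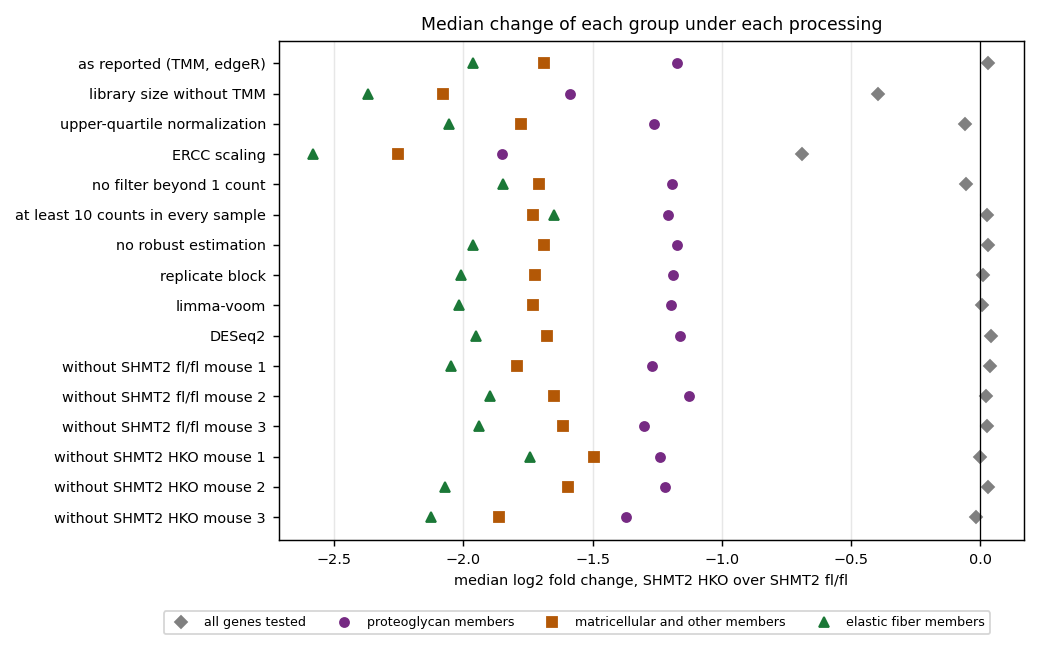
Median log2 fold change of the elastic fiber, matricellular and proteoglycan genes and of all genes tested, under the processing reported and 15 alternatives. The proteoglycan median stays above the elastic fiber median in every row, and the medians of all genes shift left without TMM (-0.40) and with ERCC scaling (-0.69).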

How the data were processed

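Liver RNA from 3 WT (SHMT2 fl/fl) and 3 KO (SHMT2 HKO) mice was sequenced. The deposited values are raw counts per gene; the authors used Trimmomatic for trimming and STAR for alignment to GRCm38 plus the ERCC sequences, and kept unique gene hits. The processing notes also name featureCounts. The strand setting is not given in the sources used here. Symbols, coordinates and exon lengths came from GENCODE vM21. Neither library sizes nor tests included the 92 ERCC rows. Gene totals were 23090837 to 34089722 counts, so 3 counts, taken as the floor of detection, were 0.0734 to 0.152 CPM. Genes were filtered with filterByExpr, scaled by TMM and fitted in edgeR 4.0.16 (quasi-likelihood test, robust, R 4.3.3), with Benjamini-Hochberg adjustment over 16089 genes. Scripts were tested on simulated data. Alternatives were library sizes without TMM, upper-quartile and ERCC scaling, other count filters, no robust estimation, a replicate block, limma-voom (limma 3.58.1), DESeq2 1.42.0 and leaving out each mouse. Ratios used a pseudocount of 0.5 counts and exact two-sided permutation tests. The members and lists were chosen with earlier results of these data known. Described genes were the listed members and, of other lists, those with the largest called changes and the risers; the ratio without *Ltbp4* and *Bgn* and the nervous tissue markers were added after seeing the data. Same-numbered WT and KO mice did not deviate together (correlations -0.0459, 0.0125 and -0.0766).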

Additional observations from a re-analysis of the deposited data

How the results depend on the processing

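Of the 32 genes called lower, 21 kept that call under each of the 15 alternatives in which they were tested and 11 lost it under at least 1. The single gene called higher became 0 without TMM and with ERCC scaling, and 0 to 1 with 1 mouse left out (0 without WT mouse 3). The 4663 genes called among all tested became 2866 with ERCC scaling and 2426 to 5597 with 1 mouse left out. The elastic fiber median was -2.58 with ERCC scaling. Its difference from the proteoglycan median was -0.44 with at least 10 counts in every sample, which leaves 35 members, and -0.85 to -0.50 with 1 mouse left out. Proteoglycan genes called lower numbered 5 to 10 with 1 mouse left out. *Emilin2* ranged from -0.10 to 0.0627 and *Postn* from -0.66 to 0.13 on the log2 scale with 1 mouse left out, and turned positive for *Emilin2* without WT mouse 1 (0.00817) or KO mouse 2 (0.0627) and for *Postn* without KO mouse 1 (0.13) or 2 (0.014). The cause of these shifts was not tested. With the replicate number as a block, 30 of the 40 genes were lower and 1 higher, among 2187 lower and 1397 higher genes; the numbers were not shown to pair the mice. Depth limits *Mfap5*, *Aspn* and the KO level of *Fbn2*, which rest on few counts.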

Other observations

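KO mouse 1, the lowest of its group in most of the matrix genes, was the highest in 3 tested members, *Emilin2*, *Vcan* and *Sparcl1*, and in *Mfap5*, which was not tested. The genes named here were chosen after their values were seen. *Thy1*, a marker of portal fibroblasts and also of neurons, had 8.11, 1.47 and 2.01 CPM in KO mice 1, 2 and 3, and *Gpm6a*, a marker of mesothelial cells and also of neurons, had 12.6, 1.72 and 2.91 CPM. KO mouse 1 was also the library with nervous tissue transcripts, with 92 counts of the neural proteoglycan gene *Spock1* against 0 to 2 in the others, and the part of those transcripts in these values was not tested. The order of the KO mice in these genes was therefore not the order seen in most elastic fiber and proteoglycan genes.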
